A study of Mus musculus with 8 samples.

Results

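Stress-responsive factors that surround ATF4 in the integrated stress response, all but Nupr1 of the basic leucine zipper (bZIP) family, were followed in mouse pancreatic islets. The set was defined by name, with earlier results of these data known. It held 10 genes of the 55414 gene identifiers counted: Atf4, Atf5, Atf3, Ddit3 (which encodes CHOP), Cebpb, Cebpg, Cebpa, Cebpd, Nupr1 and Jdp2. RNA was sequenced from islets of C57BL/6 mice aged 5 weeks, in 4 libraries labelled TG and 4 labelled WT. The TG animals had the genotype Ins2 cre(+/-) ATF4 TG(+/-), and the WT animals had the genotype Ins2 cre(-/-) ATF4 TG(+/-). Both groups therefore carried 1 copy of the ATF4 transgene allele, and the animals called WT differed in lacking the Ins2 cre driver, a Cre recombinase under the control of an insulin gene and thus directed at beta cells. No group with the Cre driver and without the transgene was among these samples, so any change brought by Cre alone and a change brought by the transgene cannot be told apart. The series title names endoplasmic reticulum stress and ATF4, and the comparison asks how the transcripts of these factors differ when the driver is present.

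In the integrated stress response, kinases that sense misfolded protein, amino acid shortage, viral RNA or heme shortage phosphorylate the initiation factor eIF2. General translation then falls, while the mRNAs of ATF4, ATF5 and CHOP, which carry upstream reading frames, are translated better. The amount of their protein therefore need not follow the amount of their mRNA, and only mRNA was measured here. bZIP factors bind DNA as dimers. ATF4 pairs with C/EBP family members, and these pairs bind composite C/EBP-ATF response elements (CAREs) in genes of amino acid synthesis, amino acid transport and redox balance. In beta cells, which make large amounts of proinsulin, the pathway is known both for adapting the cell to secretory load and, through CHOP, for cell death.

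Of the promoters of these genes, 3 carried an exact CARE, and the 250 bases before the RefSeq start of each are printed because these genes also had the largest rises described below, with the promoter of Ddit3 beside them as a stress factor with no match inside the same window. The windows are in GRCm38.p6, read 5′ to 3′ along the gene. Capitals mark the CARE, written TGATGCAA or, on the other strand, TTGCATCA, and in Ddit3 a match to the AP-1 element.
Nupr1, chr7:126625471-126625720, minus strand: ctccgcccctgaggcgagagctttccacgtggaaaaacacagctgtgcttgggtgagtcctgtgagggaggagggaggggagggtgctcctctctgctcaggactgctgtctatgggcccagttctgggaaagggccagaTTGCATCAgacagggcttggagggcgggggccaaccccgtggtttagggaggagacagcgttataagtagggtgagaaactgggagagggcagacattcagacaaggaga
Atf3, chr1:191183334-191183583, minus strand: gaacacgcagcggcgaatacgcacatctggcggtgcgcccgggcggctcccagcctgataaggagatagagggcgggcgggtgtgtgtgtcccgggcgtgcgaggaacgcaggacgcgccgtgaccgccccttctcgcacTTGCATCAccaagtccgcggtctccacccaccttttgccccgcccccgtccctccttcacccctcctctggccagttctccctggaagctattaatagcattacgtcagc
Jdp2, chr12:85599166-85599415, plus strand: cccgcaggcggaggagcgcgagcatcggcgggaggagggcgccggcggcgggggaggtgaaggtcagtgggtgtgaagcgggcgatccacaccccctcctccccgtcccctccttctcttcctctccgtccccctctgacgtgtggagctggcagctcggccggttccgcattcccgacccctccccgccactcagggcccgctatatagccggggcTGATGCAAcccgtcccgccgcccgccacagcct
Ddit3, chr10:127290543-127290792, plus strand: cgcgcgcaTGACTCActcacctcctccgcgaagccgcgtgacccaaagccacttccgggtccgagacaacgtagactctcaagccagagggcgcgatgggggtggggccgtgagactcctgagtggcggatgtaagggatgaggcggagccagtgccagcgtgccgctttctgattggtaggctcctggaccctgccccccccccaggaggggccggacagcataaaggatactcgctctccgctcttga
The element began 110 bases before the start in both Nupr1 and Atf3, and 33 bases before it in Jdp2, where 1 of 3 annotated starts carried it. RefSeq windows of 250 bases before to 50 after a start were found for 9 of the 10 genes, and none for Cebpd. The other 6 genes with a window had no match on either strand to TGATGCAA, nor to the looser form TGATGNAA. TGATGCAA occurred in 279 of 27025 genes with a window (1.03%), and TGATGNAA in 1219 (4.51%). The AP-1 element TGANTCA occurred in 8.97% of genes and, of the 9 factors, in Ddit3 alone, 242 bases before its start. The cAMP response element TGACGTCA (2.03% of genes) and the C/EBP palindrome TTGCGCAA (0.207% of genes) occurred in 0 of the 9. A match is a description of the letters and shows no binding. CAREs outside the windows, or with other letters, were not looked for.

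Of the 10 factors, 7 were higher in TG islets and Atf4 was lower, while Ddit3 and Cebpd did not pass the test. The 7 were Nupr1, Atf3, Jdp2, Atf5, Cebpb, Cebpa and Cebpg. All 10 passed the filter on low counts. Differences were called with edgeR's quasi-likelihood test at a Benjamini-Hochberg adjusted p under 0.05 over 20509 genes. Of those genes, 12.1% were called higher and 8.06% lower (20.1% in either direction). The groups did not overlap for 8 of the factors, against 22.6% of all tested genes. The median log2 fold change (TG over WT) of the 10 factors was 1.01. Over all tested genes it was 0.00, with 95% of genes below 1.36. The 10 were chosen with earlier results of these data known, so their shares and median are not independent evidence of a direction. Levels are CPM, the counts scaled to library size, on effective library sizes. The labels do not state that replicates are different animals. The p-values then reflect the variation among these 8 libraries alone, and it may be technical.

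**Figure D1:**
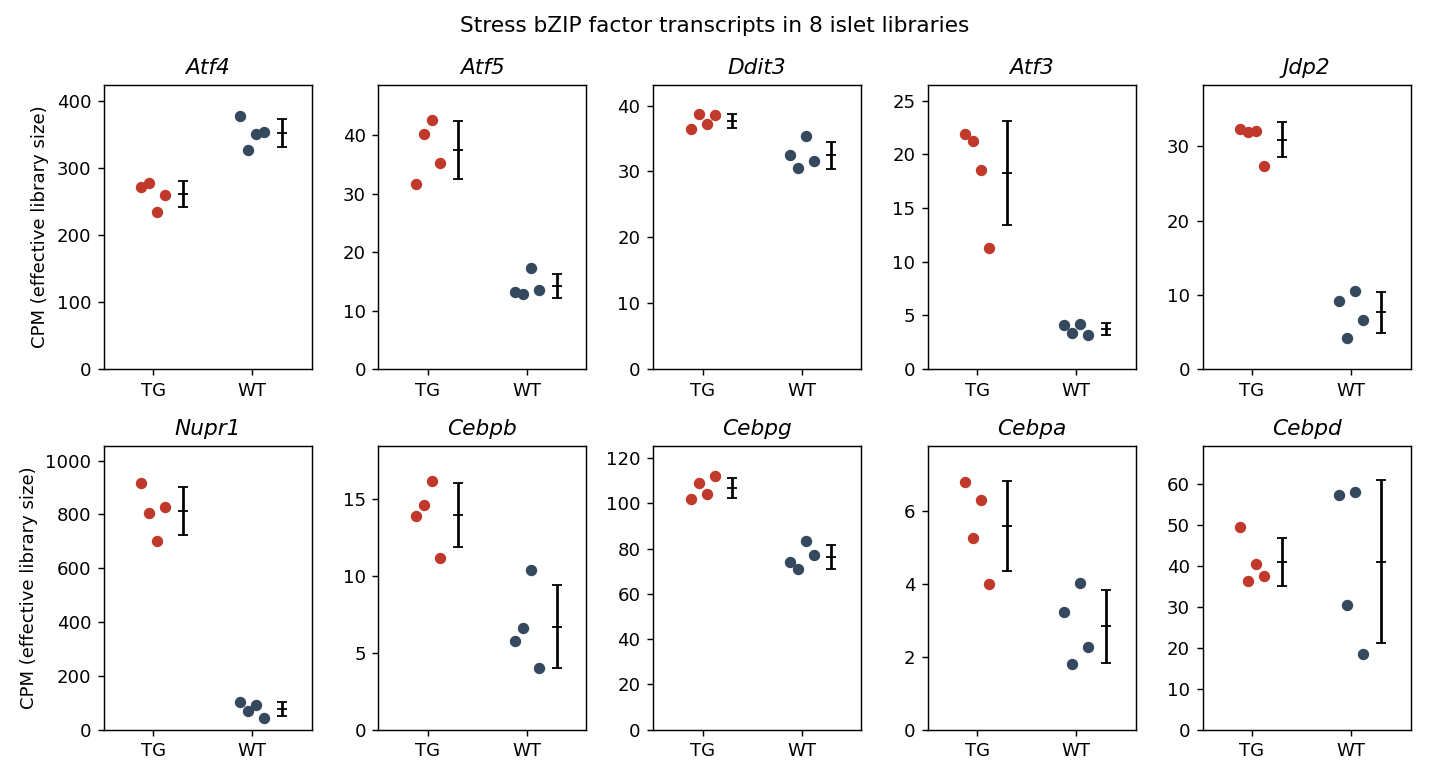
CPM on effective library sizes of each of the 10 factors (vertical axes from 0) in the 4 TG libraries (left) and the 4 WT libraries (right), with mean ± SD beside the points. Nupr1 lies between 701 and 916 CPM in TG and between 44.7 and 104 CPM in WT, Atf4 is lower in TG, and Cebpd spans a wider range in WT than in TG.

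Atf4 encodes the central factor of the response, which activates most of the stress genes named here. It was counted at 272, 278, 234 and 259 CPM in TG libraries 1 to 4, against 378, 326, 351 and 353 CPM in WT libraries 1 to 4. All 4 TG libraries were below all 4 WT libraries. The mean was 261 ± 19.8 CPM in TG and 352 ± 21.1 CPM in WT (SD, n = 4 each), a 1.35-fold lower level in TG (log2 fold change −0.43, SE 0.085, edgeR adjusted p = 0.00226). The 95% confidence interval of the log2 fold change was −0.61 to −0.25. The labels give neither the species nor the sequence of the transgene, and the counts do not separate its transcript from the endogenous one. The Atf4 count thus does not check the genotype labels, and whether transgene reads were counted for Atf4 was not tested.

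Atf5 encodes the closest relative of ATF4, also translated through upstream reading frames and known in beta cells for survival under stress. Its level was 31.7, 40.2, 42.7 and 35.2 CPM in TG, against 13.1, 12.9, 17.3 and 13.6 CPM in WT. The lowest TG library was well above the highest WT library. Atf5 averaged 37.4 ± 4.94 CPM in TG and 14.2 ± 2.05 CPM in WT (SD, n = 4 each), a 2.63-fold rise (log2 fold change 1.40, SE 0.13, edgeR adjusted p = 4.20e-06).

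Ddit3 encodes CHOP, which is induced by ATF4 and drives the pro-apoptotic arm of the response. It stood at 36.4, 38.7, 37.2 and 38.5 CPM in TG, against 32.5, 30.5, 35.3 and 31.6 CPM in WT. The groups did not overlap, although the highest WT library came close to the lowest TG library. With means of 37.7 ± 1.08 CPM in TG and 32.5 ± 2.03 CPM in WT, the log2 fold change of 0.22 (SE 0.094) had an unadjusted p of 0.0366 and an edgeR adjusted p of 0.126, so it was not called. Its 95% interval, 0.02 to 0.42 on the log2 scale, leaves room for a rise of at most 1.33-fold. Ddit3 thus lay inside the middle range of all genes, whose 75th percentile was 0.40. A second identifier with the symbol Ddit3, 105 bases long and contained in the first, had 0 counts in all 8 libraries, and it was not used.

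Nupr1, Atf3 and Jdp2, the 3 genes with an exact CARE in the printed promoters, had the largest log2 fold changes of the set. Nupr1 encodes a small stress-induced chromatin regulator that is not a bZIP protein, first described in the inflamed pancreas. It was counted at 916, 807, 701 and 829 CPM in TG libraries and at 104, 68.7, 90.8 and 44.7 CPM in WT libraries. Every TG library was several-fold above every WT library. The mean of 813 ± 88.7 CPM in TG against 76.9 ± 25.9 CPM in WT (SD, n = 4 each) is a 10.6-fold rise (log2 fold change 3.40, SE 0.26, edgeR adjusted p = 6.79e-05), with a 95% interval of 6.99-fold to 16.0-fold. By log2 fold change Nupr1 ranked 49 of the 20509 tested genes.

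Atf3 encodes an immediate stress factor that is induced by ATF4 and mostly represses transcription. Its level was 21.9, 21.2, 18.5 and 11.3 CPM in TG and 4.11, 3.36, 4.21 and 3.12 CPM in WT. TG library 4 was the lowest of its group, yet above all WT libraries. Atf3 averaged 18.2 ± 4.85 CPM in TG and 3.70 ± 0.542 CPM in WT, a 4.91-fold rise (log2 fold change 2.30, SE 0.21, edgeR adjusted p = 3.14e-06). Jdp2 encodes a bZIP protein that dimerises with JUN and ATF3-type partners and represses AP-1 sites. It was measured at 32.3, 32.0, 32.1 and 27.3 CPM in TG and at 9.18, 4.19, 10.5 and 6.60 CPM in WT. The first 3 TG libraries were nearly equal and library 4 was lower, whereas the WT libraries spread widely below them. The mean was 30.9 ± 2.40 CPM in TG and 7.62 ± 2.80 CPM in WT, a 4.05-fold rise (log2 fold change 2.02, SE 0.22, edgeR adjusted p = 5.73e-05).

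**Figure D2:**
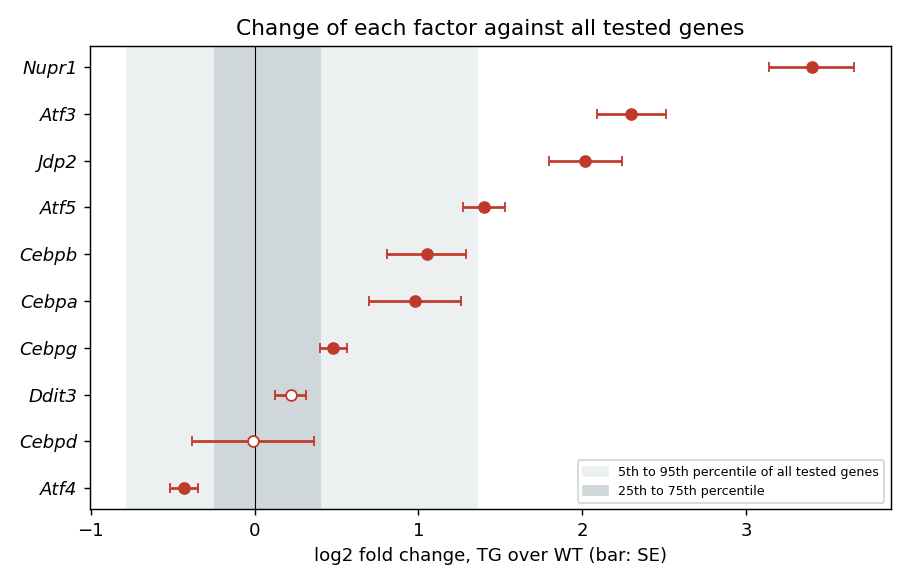
Log2 fold change (TG over WT, bars ± SE) of each of the 10 factors, filled where the edgeR adjusted p is under 0.05; the grey bands give the middle of the distribution over all 20509 tested genes. Nupr1, Atf3, Jdp2 and Atf5 lie above the 95th percentile of 1.36, and Ddit3 and Cebpd lie within the inner band.

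Of the 4 C/EBP factors, which can form dimers with ATF4, Cebpg, Cebpb and Cebpa rose and Cebpd did not pass the test. Cebpg encodes a short C/EBP without a transactivation domain of its own that pairs with ATF4 on amino acid genes. It was counted at 102, 109, 104 and 112 CPM in TG and at 74.0, 71.0, 83.3 and 77.3 CPM in WT. The groups were clearly apart and both were tight. Cebpg averaged 107 ± 4.45 CPM in TG and 76.4 ± 5.29 CPM in WT, a 1.40-fold rise (log2 fold change 0.48, SE 0.083, edgeR adjusted p = 0.000822).

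Cebpb encodes C/EBPβ, an inducible regulator of metabolism and inflammation that pairs with ATF4 and CHOP. Its values were 13.9, 14.6, 16.2 and 11.2 CPM in TG and 5.80, 6.63, 10.4 and 4.03 CPM in WT. The highest WT library, number 3, approached the lowest TG library, number 4, without overlap. The mean was 14.0 ± 2.12 CPM in TG and 6.72 ± 2.69 CPM in WT, a 2.07-fold rise (log2 fold change 1.05, SE 0.24, edgeR adjusted p = 0.00593).

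Cebpa encodes C/EBPα, which directs differentiation of liver, fat and myeloid cells, and it was the least abundant of the 10, with 37 to 143 counts per library. Its values were 6.80, 5.25, 6.31 and 3.99 CPM in TG and 3.24, 1.80, 4.03 and 2.26 CPM in WT. TG library 4 fell just below WT library 3, so the groups overlapped. Cebpa averaged 5.59 ± 1.25 CPM in TG and 2.83 ± 0.999 CPM in WT, a 1.97-fold rise (log2 fold change 0.98, SE 0.28, edgeR adjusted p = 0.0222). The call was lost without TG replicate 1 or TG replicate 3 (log2 fold change 0.88 in each case), WT replicate 2 (0.80) or WT replicate 4 (0.88). It was also lost with the acinar marker list as a covariate (0.78, SE 0.29, adjusted p = 0.0900).

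Cebpd encodes C/EBPδ, an acute-phase factor induced by cytokines. Its level was 49.3, 36.2, 40.5 and 37.5 CPM in TG and 57.3, 30.3, 58.0 and 18.4 CPM in WT. The TG libraries all lay inside the range of the WT libraries, of which numbers 1 and 3 were high and number 4 low. With means of 40.9 ± 5.90 CPM in TG and 41.0 ± 19.8 CPM in WT, the log2 fold change was −0.01 (SE 0.37, edgeR adjusted p = 0.992), and its 95% interval ran from −0.88 to 0.87. A rise to 1.82-fold or a fall to 0.543-fold of the WT level thus lay within that interval. The summed level of the 12 acinar marker genes in WT libraries 1 to 4 was 1.35e+04, 6.45e+03, 1.34e+04 and 1.37e+03 CPM, which puts the WT libraries in nearly the same order as Cebpd. In TG libraries 1 to 4 that sum was 4.44e+04, 1.38e+04, 6.97e+03 and 1.01e+04 CPM, with library 1 highest for both. The other 3 TG libraries ran in the opposite order for the 2 measures, and TG library 1 had a higher acinar sum than WT library 1 with a lower Cebpd level. The endothelial sum in WT libraries 1 to 4, at 594, 521, 905 and 515 CPM, had exactly the order of Cebpd. In TG it was lowest in library 1, where Cebpd was highest. The stromal and macrophage sums were also highest in WT libraries 3 and 1. With the acinar list as a covariate the Cebpd log2 fold change was −0.33 (SE 0.19, adjusted p = 0.291). With the endothelial and stromal lists it was −1.32 (SE 0.50, adjusted p = 0.353). These orders are descriptions of 4 libraries per group, and whether cell content sets the Cebpd level was not tested.

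Divided by exonic length, the factors could be ordered by level. In TG islets Nupr1 came first at 323 ± 35.3 CPM per kb, and Atf4 was second at 111 ± 8.38 CPM per kb (SD, n = 4). In WT islets Atf4 came first at 149 ± 8.97 CPM per kb, and Nupr1 was second at 30.6 ± 10.3 CPM per kb. The order of these 2 genes was thus exchanged between the groups. Ddit3 came next in both, at 22.0 ± 0.628 CPM per kb in TG and 19.0 ± 1.19 CPM per kb in WT, and the WT range of Nupr1 overlapped that of Ddit3. Cebpg followed at 19.0 ± 0.792 CPM per kb in TG and 13.6 ± 0.942 CPM per kb in WT. Atf5 was level with Cebpg in TG at 18.8 ± 2.48 CPM per kb and was at 7.13 ± 1.03 CPM per kb in WT. In TG, Jdp2 (14.4), Cebpd (10.9), Cebpb (9.29) and Atf3 (8.46 CPM per kb) followed with ranges that overlapped between neighbours, and Cebpa was last at 2.12 ± 0.474 CPM per kb. In WT, neighbours from Cebpg down to Cebpa overlapped, and Cebpa was again last at 1.07 ± 0.379 CPM per kb. The lengths came from GENCODE M21, an earlier annotation than the genome build named for the counts.

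Some reads of these factors could belong to genes that share their exons, since no source used here gives the strand setting of HTSeq. In that annotation Cebpb shared 20.74% of its exonic bases with Tmem189 and Cebpd shared 15% with Spidr, on the opposite strand. Atf5 shared 4.114% with Nup62 and Ddit3 shared 3.97% with Mars, which encodes methionyl-tRNA synthetase. Tmem189 (log2 fold change 0.34, SE 0.23), Spidr (−0.25, SE 0.10) and Nup62 (0.12, SE 0.11) were not called. Mars was the 1 called gene of the 7 tested genes that share exonic bases with a factor, at 147 CPM in TG and 69.9 CPM in WT (log2 fold change 1.07, SE 0.12, edgeR adjusted p = 1.86e-05). Of the 18 tested genes next to the factors that are not factors themselves, 1 was called, D730003I15Rik near Atf3, and it was lower in TG (log2 fold change −0.82, SE 0.16, edgeR adjusted p = 0.00195). Cebpg and Cebpa are neighbours of each other.

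Other bZIP families were read in the same fit. Among the 16 other ATF and CREB genes, 0 rose (1 higher at an unadjusted p under 0.05 in edgeR, 0 in DESeq2 and limma-voom), 2 fell and the median log2 fold change was −0.08. The 2 that fell were Atf6b, whose product is an endoplasmic reticulum stress sensor related to ATF6, and Crem, a cAMP-responsive modulator. Atf6b averaged 33.0 ± 2.56 CPM in TG and 44.2 ± 6.68 CPM in WT (log2 fold change −0.42, edgeR adjusted p = 0.0169), and Crem 26.7 ± 4.31 CPM in TG and 37.0 ± 4.94 CPM in WT (−0.47, adjusted p = 0.0187). The Crem call was lost without TG replicate 2 (−0.40), TG replicate 3 (−0.45) or WT replicate 4 (−0.38). Atf2 (−0.26, adjusted p = 0.0620) and Creb5 (0.73, adjusted p = 0.120) did not pass. Without WT replicate 4 Creb5 was called higher (1.04, adjusted p = 0.0335), and Atf2 was called lower without TG replicate 4 (−0.34, adjusted p = 0.0265), without WT replicate 3 (−0.32, adjusted p = 0.0313), by DESeq2 (adjusted p = 0.0486), under upper-quartile scaling (adjusted p = 0.0344), with GC offsets (adjusted p = 0.0253) and with the replicate block (adjusted p = 0.0333, or 0.00755 with GC offsets as well). Of 9 tested AP-1 genes, whose products bind the AP-1 element, 1 rose, against 12.1% of all tested genes, and the median was 0.42. That gene was Fosb, at 103 ± 19.4 CPM in TG and 51.0 ± 17.6 CPM in WT (log2 fold change 1.01, edgeR adjusted p = 0.0292). Jun had means of 320 ± 44.4 CPM in TG and 177 ± 70.4 CPM in WT (0.85, adjusted p = 0.0705), and Fosl2 (0.71, adjusted p = 0.126) and Fos (0.42, adjusted p = 0.182) also missed the threshold. The Fosb call was lost without TG replicate 1 (0.99), TG replicate 2 (1.03), TG replicate 3 (0.88), WT replicate 1 (1.02) or WT replicate 2 (0.96). Without WT replicate 3, Jun (1.13, adjusted p = 0.000352), Fosl2 (1.06, adjusted p = 0.00139) and Fos (0.57, adjusted p = 0.0328) were called. DESeq2 called 3 AP-1 genes. Of 8 other immediate early genes 2 rose, Ier3 (1.29, adjusted p = 0.00146) and Ier2 (0.83, adjusted p = 0.0431), with a median of 0.41. The call of Ier2 was lost without any 1 of the same 5 libraries (0.71 to 0.85).

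In the MAF and CNC family, which regulates antioxidant genes and lineage genes, 5 of 12 tested genes rose and 1 fell, with a median log2 fold change of 0.40. The gene that fell was Mafa, an activator of insulin transcription in mature beta cells, at 30.0 ± 3.74 CPM in TG and 188 ± 62.7 CPM in WT (log2 fold change −2.65, SE 0.23, edgeR adjusted p = 8.49e-05). Nfe2l1, a regulator of proteasome genes, averaged 440 ± 25.6 CPM in TG and 271 ± 34.0 CPM in WT (0.70, adjusted p = 0.000135). Nfe2l2, which encodes the antioxidant factor NRF2, averaged 51.0 ± 1.74 CPM in TG and 37.0 ± 2.69 CPM in WT (0.46, adjusted p = 0.00222). Maf rose as well, with 15.0 ± 3.45 CPM in TG and 4.46 ± 2.06 CPM in WT (1.73, adjusted p = 0.000942). The other two were Bach2 (1.28, adjusted p = 0.00364) and Nfe2l3 (0.83, adjusted p = 0.0124), named after their values were seen. Of the 4 tested PAR and other bZIP genes 0 were called by edgeR, DESeq2 or limma-voom, 0 had an unadjusted p under 0.05, and their log2 fold changes ran from −0.35 to 0.10.

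**Figure D3:**
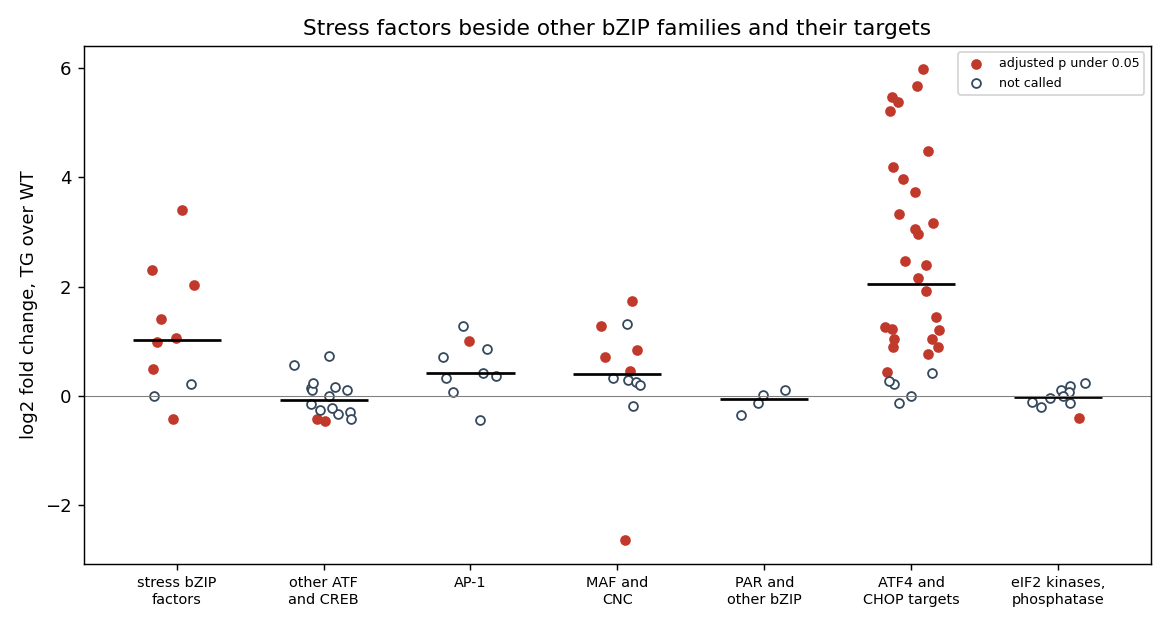
Log2 fold change (TG over WT) of each tested gene in the stress factor set, in other bZIP families, in known ATF4 and CHOP targets and in the eIF2 kinase and phosphatase list. Filled points have an edgeR adjusted p under 0.05 and bars are medians. The stress factors have a median of 1.01, the targets of 2.04, and the other ATF and CREB genes of −0.08.

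Downstream of the factors, 27 of 32 genes known as targets of ATF4 or CHOP rose and 0 fell, with a median log2 fold change of 2.04. In edgeR 0 were lower at an unadjusted p under 0.05, and 0 were called lower by DESeq2 or limma-voom. Slc7a11, the cystine-glutamate exchanger, averaged 160 ± 14.0 CPM in TG and 2.52 ± 0.771 CPM in WT (log2 fold change 5.98, SE 0.17, edgeR adjusted p = 7.71e-12). Cth, the cysteine-forming enzyme of transsulfuration, averaged 54.2 ± 6.61 CPM in TG and 1.45 ± 0.0707 CPM in WT (5.21, SE 0.14, adjusted p = 4.17e-12). Phgdh, the first enzyme of serine synthesis, stood at 253 ± 25.6 CPM in TG and 25.1 ± 2.46 CPM in WT (3.33, SE 0.10, adjusted p = 1.04e-11). Eif4ebp1, a repressor of cap-dependent translation, stood at 111 ± 6.94 CPM in TG and 12.5 ± 1.43 CPM in WT (3.16, SE 0.11, adjusted p = 2.05e-11). The list was chosen with earlier results of these data known, and it is not independent evidence of its direction.

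Upstream of ATF4, 0 of 10 listed genes for eIF2 kinases, the eIF2 phosphatase and their regulators rose and 1 fell, with a median of −0.02. In edgeR 1 gene, Eif2ak4, was higher at an unadjusted p under 0.05 (log2 fold change 0.23, edgeR adjusted p = 0.107; named after its values were seen), and DESeq2 and limma-voom called 0 higher. The gene that fell was Dele1, which relays mitochondrial stress to the heme-regulated eIF2 kinase, at 56.6 ± 3.66 CPM in TG and 74.5 ± 4.39 CPM in WT (log2 fold change −0.40, SE 0.087, edgeR adjusted p = 0.00460). Ppp1r15a, which encodes a subunit of the eIF2 phosphatase, was listed among the targets instead. It rose (log2 fold change 0.43, edgeR adjusted p = 0.0158, named after its values were seen). Of 7 listed genes for ATF4 protein turnover and cofactors 2 rose. Trib2, a pseudokinase of the family that binds ATF4, averaged 28.3 ± 1.88 CPM in TG and 18.5 ± 2.15 CPM in WT (0.61, adjusted p = 0.00185). Trib3, of the same family, was listed among the targets and named after its values were seen. It averaged 79.9 ± 15.7 CPM in TG and 1.92 ± 0.400 CPM in WT (5.39, edgeR adjusted p = 2.88e-11). Egln3, a prolyl hydroxylase that interacts with ATF4, averaged 1.66 ± 0.571 CPM in TG and 0.361 ± 0.0414 CPM in WT (2.18, adjusted p = 0.00402).

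The exact CARE of the printed promoters could be followed across all genes. Of the 13495 tested genes with a RefSeq window, 13.4% rose and 9.11% fell. Of the 114 with TGATGCAA, 40 rose (35.1%) and 5 fell (4.39%). Of the 431 with the looser TGATGNAA, which include those 114, 23.2% rose and 6.26% fell. The AP-1 element was in 943 tested genes, of which 19.5% rose and 6.57% fell. For the 429 with the cAMP response element the shares were 8.86% and 11.9%. For the 40 with the C/EBP palindrome they were 7.50% and 7.50%. A rise of at least 2-fold was called for 22 of the 114 (19.3%) and for 950 of the 13495 (7.04%). These shares are descriptions, and the differences between them were not tested.

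Among 11325 genes that averaged 5 CPM or more, those with profiles near that of Atf4 over the 8 libraries included Slc10a3, at a root mean square difference from Atf4 of 0.0492 on the log2 scale. Atf4 itself had a spread of 0.234 around its own mean. Fam50a (0.0572), Gfpt1 (0.0572) and Aida (0.0588) came next. Their log2 fold changes lay between −0.47 for Slc10a3 and −0.38 for Fam50a. The same 8 libraries served to pick these genes, so values near the −0.43 of Atf4 were fixed by that choice. Nearest Ddit3, whose own spread was 0.124, were Wdr1 (0.0383), H3f3b (0.0438), Rac1 (0.0465), Ppm1a (0.0473) and Ss18 (0.0484). Of all tested genes, 13.2% had a log2 fold change below that of Atf4, and 66.8% had one below that of Ddit3. The median absolute log2 fold change over all tested genes was 0.30.

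Marker genes of the cell types in an islet also differed between the groups, and each summed level below is in CPM. Of 10 beta cell markers 10 fell, and their sum ran from 5.08e+04 to 6.50e+04 in TG, against 1.06e+05 to 1.26e+05 in WT. In bulk RNA, fewer cells of a type and less RNA per cell cannot be told apart. Of 10 endothelial markers 10 rose, with sums of 1.22e+03 to 1.28e+03 in TG and 515 to 905 in WT. Of 10 stellate, fibroblast and mural markers 6 rose, with sums of 3.35e+03 to 6.48e+03 in TG and 844 to 2.80e+03 in WT. Of 11 tested macrophage and leukocyte markers 8 rose, with sums of 230 to 548 in TG and 136 to 223 in WT, and the T cell marker Cd3e was too low to test. Of 7 ductal markers 5 rose, with sums of 758 to 1.04e+03 in TG and 374 to 428 in WT. Of 11 tested acinar markers 1 rose and the groups overlapped. Of 2 tested adipocyte markers 1 rose, Fabp4, which endothelial cells also express, while Adipoq, Plin1, Lep, Cfd and Retn were too low to test.

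**Figure D4:**
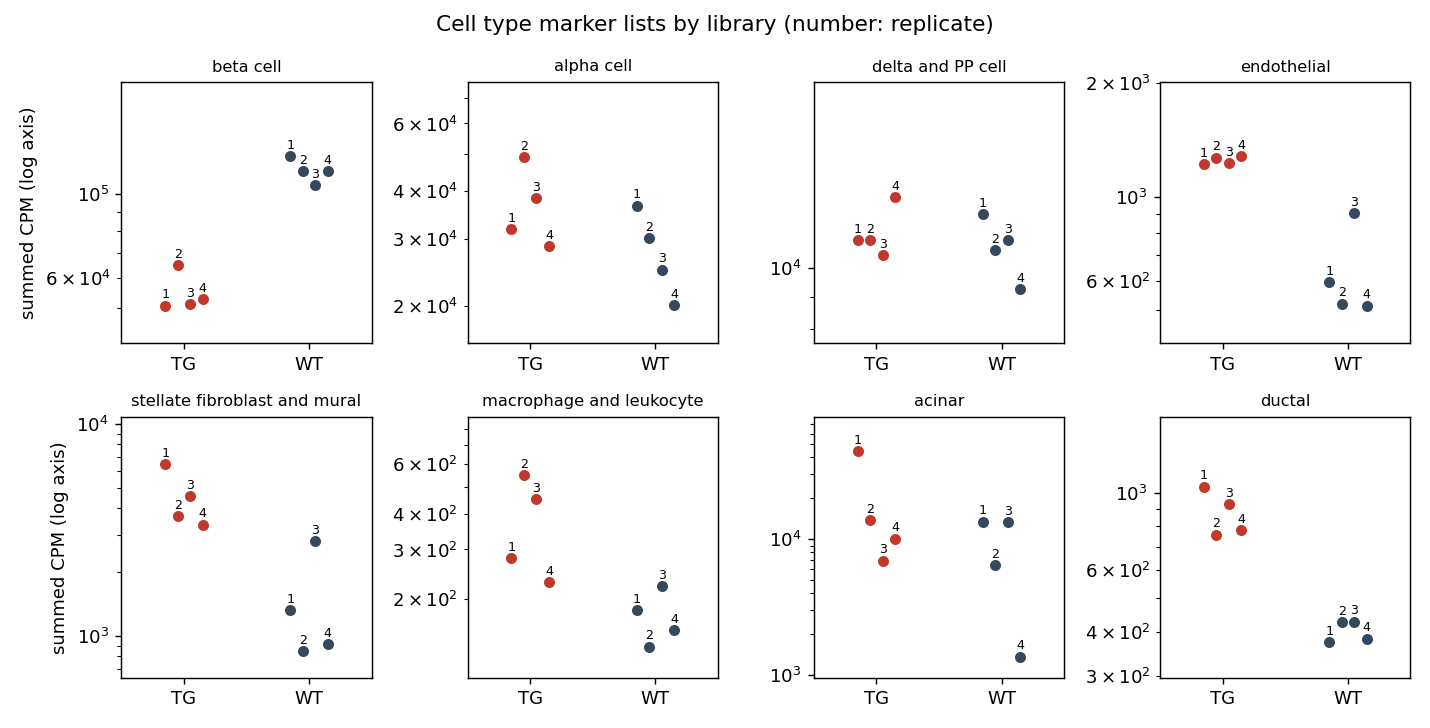
Summed CPM (log axes) of each cell type marker list in the 4 TG libraries (left) and 4 WT libraries (right), numbered by replicate. The beta cell sum is lower in every TG library, the endothelial, stromal, macrophage and ductal sums are higher in every TG library, and the alpha, delta and acinar sums overlap.

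Because several of these sums move with the groups, each factor was also fitted with a marker list as a covariate. The covariate was the mean log2 CPM of the list's tested genes in each library, and not their sum. Endothelial and stromal genes were pooled into a single mean. With the endothelial and stromal lists as covariate, Nupr1 kept a log2 fold change of 2.71 (SE 0.47, adjusted p = 0.0197). In the same fit Atf3 was at 1.80 (SE 0.46, adjusted p = 0.0674), Atf5 at 1.05 (SE 0.27, adjusted p = 0.0683) and Jdp2 at 1.01 (SE 0.35, adjusted p = 0.228). Cebpb was at 0.08 (SE 0.39, adjusted p = 0.971), Cebpa at −0.20 (SE 0.51, adjusted p = 0.940) and Cebpg at 0.33 (SE 0.18, adjusted p = 0.562). Atf4 stayed at −0.48 (SE 0.19, adjusted p = 0.321). Cebpd was at −1.32 (SE 0.50, adjusted p = 0.353) and Ddit3 at 0.04 (SE 0.20, adjusted p = 0.971). The estimates of Cebpb and Cebpa were thus near or below 0 in this fit, while Cebpd moved most and Atf4 least. With the macrophage list as covariate, Nupr1 (3.08, adjusted p = 0.0205), Atf3 (1.64, adjusted p = 0.0338) and Atf5 (0.94, adjusted p = 0.0350) were called. Jdp2 was at 1.33 (adjusted p = 0.0564), Cebpg at 0.40 (adjusted p = 0.242), Cebpb at 0.17 (adjusted p = 0.882) and Cebpa at 0.17 (adjusted p = 0.921). Atf4 was at −0.46 (adjusted p = 0.208), Cebpd at −0.72 (adjusted p = 0.686) and Ddit3 at 0.09 (adjusted p = 0.880). The median SE over all genes was 1.95 times larger with the endothelial and stromal covariate and 1.86 times larger with the macrophage one, since both lists separate the groups. TG libraries 2 and 3 had the highest macrophage sums, 548 and 452 CPM. Without them Cebpb (0.85, adjusted p = 0.0908) and Cebpa (0.89, adjusted p = 0.155) were no longer called, and the other 6 called factors kept their calls.

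**Figure D5:**
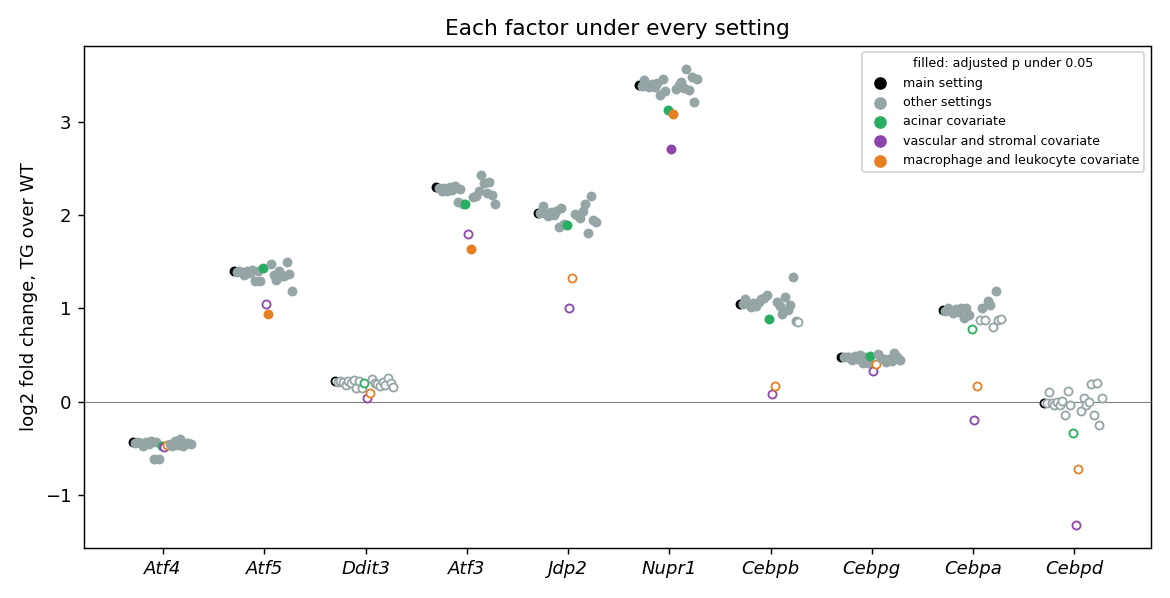
Log2 fold change (TG over WT) of each of the 10 factors under the reported setting (black) and 22 alternatives, filled where the adjusted p is under 0.05; coloured points are fits with a marker list as covariate. Nupr1 stays between 2.71 and 3.57 and is called in all 22, Cebpb ranges from 0.08 to 1.34, and Ddit3 and Cebpd are called in none.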

How the data were processed

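Gene counts were deposited by the authors as whole, unnormalized read counts per Ensembl mouse gene, 1 table per library. The submitters' processing notes name STAR 2.7.10a, HTSeq 0.11.3 and mm39; the strand setting and annotation are not given in the sources used here. Libraries held 16521087 to 22499999 gene counts, so a count of 0 allows up to 3 counts, 0.1333 to 0.1816 CPM (counting error only). Reads outside genes (25.34% to 31.52% of each table) and ambiguous reads (3.744% to 4.364%) were left out. Replicates of a group differed beyond sampling noise (chi-square per gene 16.9 to 56.7). Symbols, lengths and GC content came from GENCODE M21 (52081 of 55414 identifiers with a symbol), promoters from RefSeq.

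Genes were filtered with filterByExpr (minimum count 10), scaled by TMM and tested in all 8 libraries, group as the only term, with the robust, two-sided quasi-likelihood test of edgeR 4.0.16 in R 4.3.3 and Benjamini-Hochberg adjustment. The step was checked on simulated data. Named are the 10 factors, up to 4 genes of each of the other pathway lists with the lowest adjusted p, the 5 profiles nearest Atf4 and Ddit3, and neighbouring genes. A gene that this rule selects is not reported here. Members and lists were chosen with earlier results of these data known. Alternatives were DESeq2 1.42.0, limma-voom (limma 3.58.1), other scalings and filters, GC offsets, a replicate block, marker covariates and leaving out libraries.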

Additional observations from a re-analysis of the deposited data

Results flagged for a closer look

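In 2 of the 20 groups of 4 libraries looked at (10 factors in each of TG and WT), 1 library stood apart from the others by Dixon's criterion, which flags about 1 group in 20 by chance. Jdp2 was at 27.3 CPM in TG replicate 4, below 3 libraries between 32.0 and 32.3 CPM, a gap of 0.924 of the group's range. Atf5 was at 17.3 CPM in WT replicate 3, above 3 libraries between 12.9 and 13.6 CPM, a gap of 0.833 of the range. Neither library changed the call of its gene when left out.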

How the results depend on the processing

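Across 22 alternatives Nupr1 was called in 22 (log2 fold change 2.71 to 3.57), Atf5 and Atf3 in 21, and Atf4 (−0.61 to −0.40), Cebpg and Jdp2 in 20. Cebpb was called in 19, Cebpa in 14, and Ddit3 (0.04 to 0.25) and Cebpd (−1.32 to 0.20) in 0. With the vascular and stromal covariate 1 factor was called higher and 0 lower, and 345 genes in all. With the macrophage covariate 3 were called higher and 0 lower, and 389 genes in all. Without TG replicates 2 and 3, an alternative added after the data had been seen, 2254 genes were called. GC offsets moved the median of all genes by −0.10, and 41.2% of their 5187 calls were higher (39.8% with the block), against 59.9% of 4129 without them. Whether the replicate numbers pair the samples was not settled. Correlations of deviations between samples of the same number were −0.04, 0.07, 0.02 and −0.01, which cannot exclude pairing. TG replicates 2 and 3 were nearest their own number in WT, and TG replicates 1 and 4 another. With the number as a block the median SE was 0.908 of that in the reported fit. In that fit with the block 4673 genes were called and each factor kept its side of the threshold. Leaving out 1 library at a time gave 2864 to 4404 calls. Of the AP-1 list, 0 to 5 genes were called higher across the alternatives, against 1, and of the other ATF and CREB list 0 to 7 lower, against 2, with the highest numbers under the replicate block (5 AP-1 genes higher) and under the replicate block with GC offsets (7 ATF and CREB genes lower, against 4 with the block alone and 6 with GC offsets alone). The macrophage covariate gave 16 target genes called higher, against 27, and with either covariate 0 MAF and CNC genes were called higher, against 5.

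Some signs turned, in no case with a call in that setting, and with the cause not tested. Cebpd was at 0.10 in limma-voom, 0.00 without the 50 most abundant genes in the scaling, 0.01 under a 1 CPM filter, 0.11 with the replicate block, 0.04 without TG replicates 2 and 3, and −0.25 to 0.20 without 1 library. GC offsets put Wdr1 at −0.01 and Nup62 at −0.04, and adding the block −0.02 and −0.04. The vascular and stromal covariate put Cebpa at −0.20, Atf2 at 0.06, Fosb at 0.00, Jun at −0.35, Fosl2 at −0.59, Fos at −0.18 and Nup62 at −0.08. The macrophage covariate put Atf2 at 0.01, Fos at −0.26 and Nup62 at −0.06. Of the values of single genes and lists, 1140 kept their direction and side of the threshold, 116 lost a call, 30 gained one, 55 counts moved and 23 changed sign.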
